A study of Homo sapiens with 6 samples.

Results

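The replication-dependent histone genes were taken as every row of the expression table whose symbol begins with HIST1H, HIST2H, HIST3H or HIST4H, which gave 52 genes of 16536. They comprise 5 genes of the linker histone H1, 12 of H2A, 15 of H2B, 9 of H3 and 11 of H4. RNA came from SCC4, an established human cell line from a squamous carcinoma of the tongue. Parental cells, grown attached to the dish, were compared with sphere cells, which were obtained from the same line by growth in suspension and are held by the submitters to be cancer stem cells, with 3 libraries in each group. No treatment or genetic change separates the groups, and the labels name no marker by which sphere cells were sorted. The submitters ask how the transcriptomes of these culture forms differ.

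Replication-dependent histone genes supply the proteins that package newly copied DNA, and in dividing cells their mRNAs accumulate in S phase and are degraded when replication ends. Nearly all other mRNAs end in a poly(A) tail, whereas these end in a short stem-loop that is bound by the stem-loop binding protein SLBP and cut by a machinery containing the U7 small RNA. Some of the genes can also make longer, polyadenylated transcripts that run past the stem-loop, a form known from differentiated and non-dividing cells. The sources used here do not give whether polyadenylated RNA was selected for these libraries, and the values do not separate the forms. The reads were single-end and 50 bases long, per the labels' protocols.

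The stem-loop sequences are shown because they are the mark of the family's mRNAs. GENCODE v29 transcripts on GRCh38 were searched for the histone stem-loop consensus, and every match kept lay after the stop codon. It was found in 28 of the 52 genes. Of the other 24 genes, 20 have fewer than 16 annotated bases after the stop codon, and the others are HIST1H1E, HIST1H1T, HIST1H2BJ and HIST1H4C. A missing match says only that these letters are not in the annotated transcript. One example of each of the 6 forms found follows, written 5′ to 3′ as DNA, with the 16-base stem-loop in capitals. All of these examples lie on chromosome 6.
HIST1H2AC: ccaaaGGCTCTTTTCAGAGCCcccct
HIST1H2BC: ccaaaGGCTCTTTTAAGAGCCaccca
HIST1H4H: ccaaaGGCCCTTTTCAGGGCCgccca
HIST1H4I: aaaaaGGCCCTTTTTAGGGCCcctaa
HIST1H3E: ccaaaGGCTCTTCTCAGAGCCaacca
HIST1H2AG: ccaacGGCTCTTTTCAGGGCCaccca

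The HIST1H2AC form was carried by 15 genes, all of H2A, H2B or H3. The HIST1H2BC form was carried by 4 genes, 3 of H2B and HIST1H3G. The HIST1H4H form was found in 4 genes and the HIST1H4I form in 3, all of H4. HIST1H3E and HIST1H2AG were alone with theirs.

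Before the histone values, 3 libraries stood apart. The table holds 10 of 20 erythroid marker genes, and their summed level in replicates 1, 2 and 3 was 0, 1909.5 and 1323 units for parental cells and 1.32, 1268 and 0.334 units for sphere cells. Most of this came from 6 globin genes. Parental replicates 2 and 3 and sphere replicate 2 therefore carried erythroid transcripts, and the other 3 libraries were at or near 0. The erythroid transcription factor GATA1 was at 10.6 units in parental replicate 3 and 6.51 units in sphere replicate 2, but at 0.00671 units in parental replicate 2. All 10 squamous epithelial markers were in the table, with summed levels of 8199 to 8905 units in parental and 27966 to 29588 units in sphere libraries, while 3 of 7 fibroblast, 2 of 7 leukocyte and 1 of 5 endothelial markers were. The part of the erythroid transcripts in any histone value was not tested, and values without these libraries are given beside the results that change with them. Counts of genes that stand apart in 1 library cannot be had without them, since the parental group then has 1 library. Column totals were 885258 to 1134102 units on a scale that the authors name TPM, so the read depth behind a value is unknown. Nothing in the labels ties the replicates to separate cultures, and p-values therefore reflect only how far these 6 libraries differ, technical spread included.

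Histone transcripts did not move as a block. The 45 genes that reached 1 unit in 3 or more libraries were tested with limma and called at an adjusted p below 0.05, a rule that called 48.7% of all 15034 genes tested. Of these 45 histone genes 12 were called lower in sphere cells, which is 26.7% against 22.9% of all genes tested. Only HIST1H4J was called higher, which is 2.22% against 25.8% of all genes tested. With all libraries brought to a common total, 15.2% of all genes were called higher and 25.1% lower, while the histone calls remained 1 and 12. HIST1H4J and HIST2H2AB, which is among the lower calls, reached 1 unit in 1 group alone and so passed the filter through the group in which they are high. Of the other 43 tested histone genes 11 were called lower and 0 higher by limma, with 0 higher at an unadjusted p below 0.05 as well. With no filter on low values 12 of 52 histone genes, or 23.1%, were called lower against 21.3% of all genes, and 1 was called higher against 23%. The median log2 fold change, sphere against parental on the log2(units + 1) scale, was -0.25 for the histone genes and 0.04 for all tested genes. The fold change was below 0 in 32 and above 0 in 13 histone genes. By class the median was -0.02 for H1, -0.57 for H2A, -0.26 for H2B, -0.20 for H3 and -0.03 for H4. Genes called lower numbered 1 of 4 tested in H1, 4 of 10 in H2A, 4 of 13 in H2B, 1 of 8 in H3 and 2 of 10 in H4. The HIST1 cluster on chromosome 6 held 8 of them among 33 tested, and the HIST2 cluster on chromosome 1 held 3 among 9. The other, HIST3H2BB, belongs to the small HIST3 cluster on chromosome 1. The 7 genes below the filter were HIST1H1T, HIST1H2AH, HIST1H2AJ, HIST1H2BL, HIST1H2BI, HIST1H3A and HIST1H4A, none above 5.45 units in any library.

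**Figure D1:**
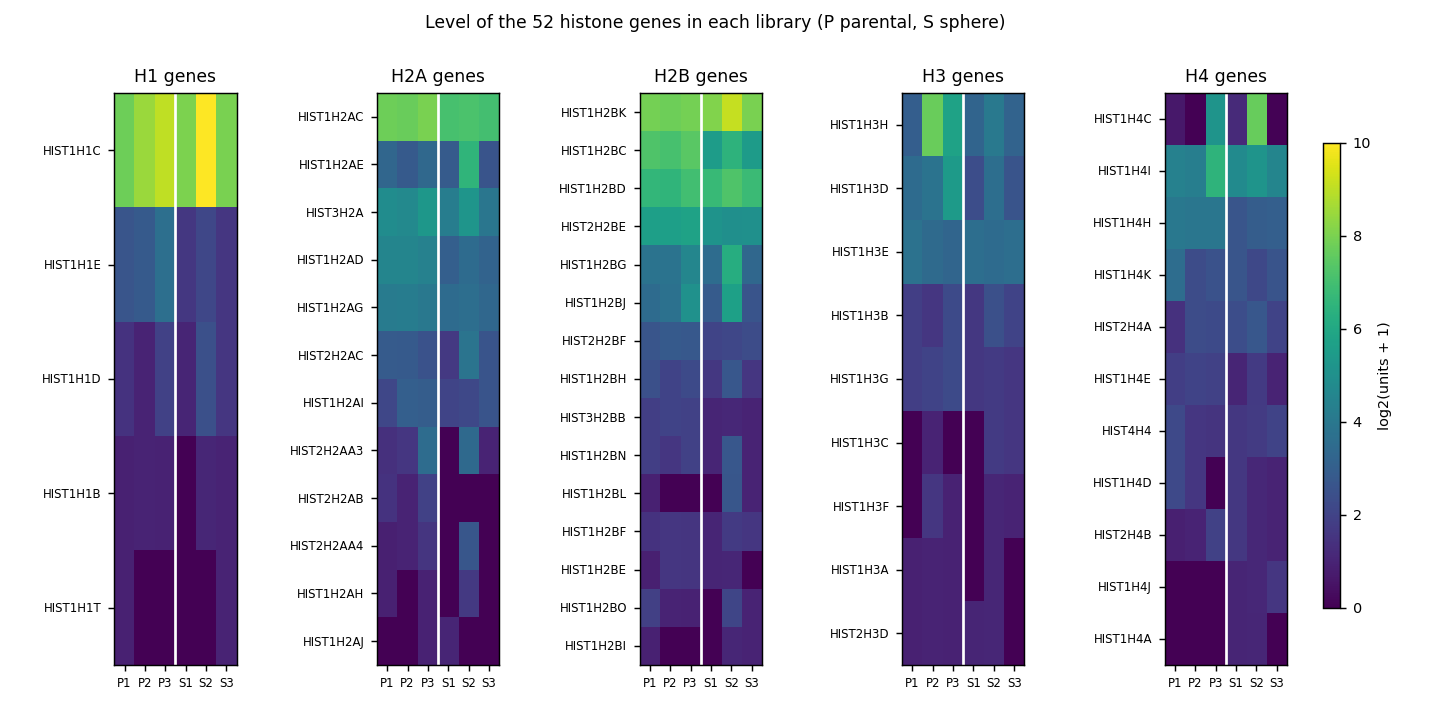
Level of each of the 52 histone genes as log2(units + 1), by class, with parental replicates P1 to P3 left of the white line and sphere replicates S1 to S3 right of it. The bright S2 cells of HIST1H1C, HIST1H2AE, HIST1H2BG and HIST1H4C and the P2 cell of HIST1H3H mark libraries that stood apart within their group.

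**Figure D2:**
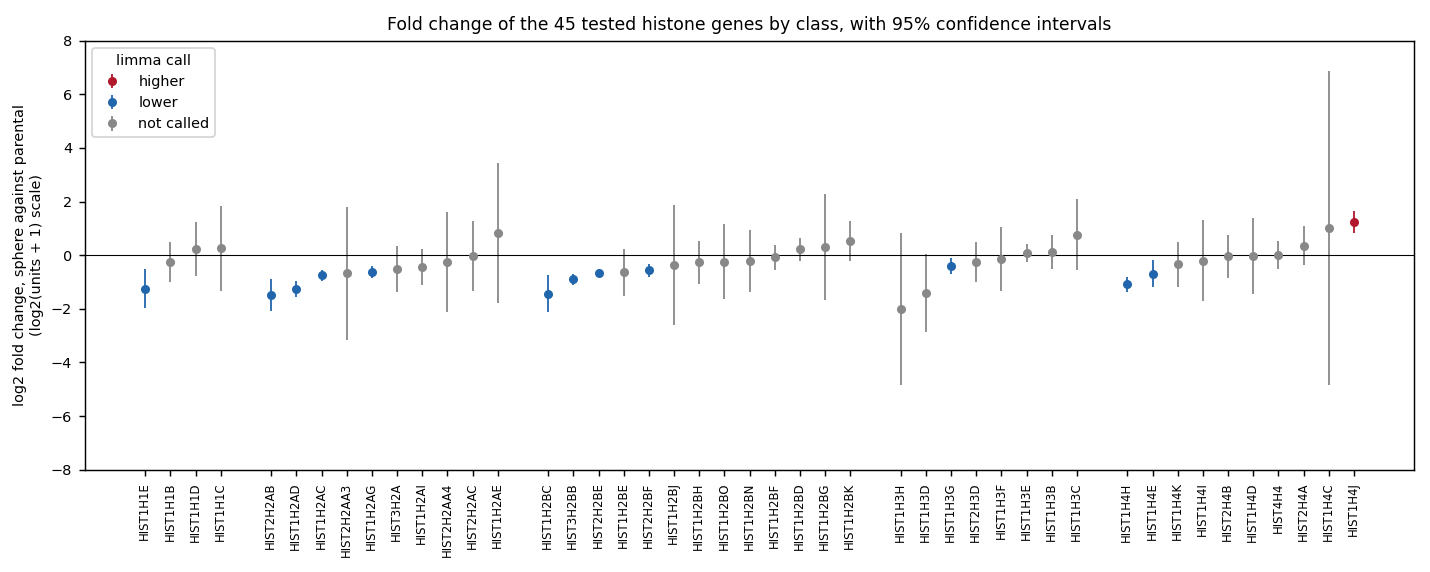
Log2 fold change, sphere against parental on the log2(units + 1) scale, of the 45 tested histone genes, as points with 95% confidence intervals from limma over 3 libraries per group. The 12 genes called lower are blue and have short intervals, HIST1H4J is red, and the interval of HIST1H4C runs from -4.83 to 6.87.

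Leaving out the 3 libraries with erythroid transcripts compared sphere replicates 1 and 3 with parental replicate 1 alone, whose spread is then assumed to be like that of the sphere libraries. In that comparison 17 of 45 histone genes, or 37.8%, were called lower, against 17% of all genes, and 3, or 6.67%, were called higher, against 23.3%. Of the 12 lower calls 10 remained. The 7 further lower calls were HIST1H3D, HIST3H2A, HIST1H4K, HIST1H2BJ, HIST2H2AA4, HIST1H2BH and HIST1H2BN, and the further higher calls HIST1H1C and HIST2H4A. HIST2H2BF, at a log2 fold change of -0.47 (adjusted p = 0.111) against -0.56 with all libraries, and HIST1H3G, at -0.25 (adjusted p = 0.117) against -0.40, were no longer called by limma. Over all the alternatives run these adjusted p values ranged from 0.000842 to 0.111 and from 0.0118 to 0.117.

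Linker histone H1 binds DNA between nucleosomes and compacts the fibre. HIST1H1C, the gene of the H1.2 subtype, made up 96.1% to 99.2% of the summed H1 level of a library. Its level in parental replicates 1, 2 and 3 was 218, 360.0 and 525 units, and in the sphere replicates, in the same order, 261, 1074 and 254 units. Sphere replicate 2 was 4.11 times the nearest other sphere library on the units + 1 scale, while the other sphere libraries lay within the parental range. The log2 fold change was 0.26 (95% CI -1.32 to 1.84) with an adjusted p of 0.753. Without sphere replicate 2 it was -0.42 and not called. With the 3 libraries holding erythroid transcripts left out it was 0.24 with an adjusted p of 0.0483, in a range of 0.0483 to 0.943 over the alternatives. Its parental values were also higher in the libraries with globin transcripts, at 360.0 and 525 units, than in the one without, at 218 units.

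HIST1H1E, the gene of H1.4, fell. In the same order its levels were 5.20, 6.06 and 11.4 units in parental and 2.08, 3.36 and 2.02 units in sphere replicates. Every sphere value was below every parental value, and the log2 fold change was -1.25 (95% CI -1.98 to -0.52) with an adjusted p of 0.0159. The call was lost without sphere replicate 1 (log2 fold change -1.17, adjusted p = 0.0576) and without sphere replicate 3 (log2 fold change -1.16, adjusted p = 0.0579), with a range of 0.00693 to 0.0579 over the alternatives. HIST1H1D and HIST1H1B had log2 fold changes of 0.22 and -0.26 and were not called, and HIST1H1T, the testis form, stayed at or below 1.01 units.

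H2A pairs with H2B in the nucleosome. HIST1H2AC dominated the class, with 43.9% to 74.0% of the summed H2A level of a library. It lay at 223, 209 and 256 units in parental replicates and at 136, 143 and 127 units in sphere replicates. All sphere libraries were below all parental ones, including sphere replicate 2, and the log2 fold change was -0.75 (95% CI -0.97 to -0.54) with an adjusted p of 0.000931.

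HIST1H2AD lay at 22.2, 22.2 and 19.8 units in parental and 7.25, 10.1 and 8.07 units in sphere replicates. The groups did not overlap, and it fell by 1.25 on the log2 scale, with an adjusted p of 0.000438. In the annotation 98.0% of its 50-base windows also occur in the overlapping gene model AL031777.3 on the same strand, so its reads may not be assigned to it alone. HIST1H2AG had 16.9, 17.1 and 15.1 units in parental and 10.3, 11.3 and 9.08 units in sphere replicates. It too was lower in every sphere library, with a log2 fold change of -0.63 and an adjusted p of 0.00237. HIST2H2AB was the remaining H2A gene called lower, from 1.76, 1.01 and 2.86 units in the parental libraries to being listed at 0 in each sphere library, with an adjusted p of 0.00352 and no fold given. Since it entered the test through the parental libraries alone, a difference in this direction was built in.

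HIST1H2AE behaved differently. It lay at 8.89, 6.06 and 9.48 units in parental and at 6.39, 91.8 and 5.09 units in sphere replicates. Sphere replicate 2 was 12.6 times the nearest sphere library on the units + 1 scale, and the others lay at or below the parental levels. The log2 fold change of 0.84 (95% CI -1.77 to 3.44, adjusted p = 0.537) therefore rests on 1 library, and it became -0.43 without sphere replicate 2 and -0.56 with the 3 libraries holding erythroid transcripts left out. HIST2H2AC showed the same library high, at 2.12, 13.2 and 5.05 units in sphere against 6.22, 6.05 and 4.70 units in parental replicates, with overlapping groups. Its log2 fold change without the 3 libraries with erythroid transcripts was -0.73 and not called.

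HIST3H2A had 28.3, 25.2 and 37.9 units in parental and 17.6, 35.7 and 14.1 units in sphere replicates. Sphere replicates 1 and 3 lay below all parental libraries and sphere replicate 2 among them, and the log2 fold change of -0.51 had an adjusted p of 0.281. Without sphere replicate 2 it was -0.89 with an adjusted p of 0.0262, in a range of 0.0262 to 0.590 over the alternatives. HIST1H2AI, at 3.43, 7.05 and 6.64 units in parental and 3.11, 3.44 and 5.04 units in sphere replicates, was not called, except without parental replicate 1, where the log2 fold change was -0.71 (adjusted p = 0.0351, in a range of 0.0351 to 0.637).

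Among the H2B genes called lower, HIST1H2BC had the largest change. It lay at 149, 134 and 173 units in parental and at 44.5, 86.6 and 43.4 units in sphere replicates. No sphere library reached the parental range, although sphere replicate 2 was again the highest of its group. The log2 fold change was -1.44 (95% CI -2.13 to -0.75) with an adjusted p of 0.00725, and without sphere replicate 2 it was -1.76. HIST2H2BE varied little within its groups, at 49.6, 49.4 and 53.9 units in parental and 34.1, 30.7 and 31.3 units in sphere replicates. Its groups were well separated, at a log2 fold change of -0.65 (95% CI -0.80 to -0.51) and an adjusted p of 0.000334. HIST2H2BF, at 5.29, 6.05 and 5.67 units in parental and 3.11, 3.42 and 4.03 units in sphere replicates, was lower in every sphere library too (log2 fold change -0.56, adjusted p = 0.00504).

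HIST1H2BK, which had the highest mean level of the class on the authors' TPM scale, was not called. It lay at 239, 219.8 and 241 units in parental and 271, 550.5 and 255 units in sphere replicates. All sphere values were above all parental ones, yet the spread within the sphere group left the log2 fold change of 0.53 (95% CI -0.21 to 1.26) at an adjusted p of 0.200. Without sphere replicate 2 the log2 fold change was 0.17 and still not called. Reads of this gene are shared too, as 74.1% of its 50-base windows occur in transcripts of other genes, most of them in H2BFS. HIST1H2BD had 96.5, 91.8 and 126 units in parental and 105, 151 and 113 units in sphere replicates, with overlapping groups and an adjusted p of 0.332.

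HIST1H2BG and HIST1H2BJ were high in the same libraries. HIST1H2BG lay at 13.2, 13.1 and 22.8 units in parental and 10.5, 74.2 and 9.12 units in sphere replicates. HIST1H2BJ lay at 10.3, 12.1 and 32.4 units in parental and 6.33, 50.7 and 5.08 units in sphere replicates. In both, parental replicate 3 and sphere replicate 2 stood highest in their groups and the remaining sphere libraries were below every parental library. Their log2 fold changes of 0.29 and -0.37 had adjusted p values of 0.778 and 0.754. Without sphere replicate 2 the log2 fold changes were -0.64 and -1.35 and were not called.

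H3 carries many of the modified residues of the nucleosome tail. HIST1H3H lay at 6.98, 207 and 52.6 units in parental and at 8.30, 15.6 and 8.08 units in sphere replicates. Parental replicates 2 and 3 were far above every sphere library, but parental replicate 1 was the lowest of all 6. The log2 fold change of -1.99 (95% CI -4.83 to 0.84) had an adjusted p of 0.209, and without the 3 libraries with erythroid transcripts it was 0.20. Without parental replicate 1 it was -3.24 and called, at an adjusted p of 0.0146 in a range of 0.0146 to 0.428 over the alternatives. The variant gene H2AFX and the replication clamp gene PCNA had the same order of parental libraries, at 40.6, 270.1 and 89.5 units and at 340.4, 949.8 and 572 units. PCNA was chosen after its values were seen.

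HIST1H3D lay at 10.2, 13.1 and 43.0 units in parental and 4.17, 11.1 and 5.05 units in sphere replicates. Sphere replicate 2 reached the lowest parental levels and parental replicate 3 stood above the rest, and the log2 fold change of -1.40 had an adjusted p of 0.101. Without the 3 libraries with erythroid transcripts it was -1.01 and called, at an adjusted p of 0.0166 in a range of 0.0166 to 0.249. All of its 50-base windows are shared with AL031777.3. HIST1H3E, by contrast, was level, at 12.5, 10.1 and 8.46 units in parental and 11.4, 10.3 and 11.1 units in sphere replicates (log2 fold change 0.08, 95% CI -0.25 to 0.42, of the other sign under some scalings).

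H4 is the partner of H3, and its genes encode 1 protein from many copies. HIST1H4C lay at 0.551, 0.0196 and 35.6 units in parental and at 1.27, 201 and 0.0540 units in sphere replicates. It was thus high in sphere replicate 2 and parental replicate 3 and at or near 0 in the remaining libraries. In sphere replicate 2 it made up 77.1% of the summed H4 level. The log2 fold change was 1.02 (95% CI -4.83 to 6.87) with an adjusted p of 0.739, and it was -1.32 without sphere replicate 2. With the 3 libraries holding erythroid transcripts left out it was -0.0052. It was not high in parental replicate 2, which had the largest globin sum, 1905 units, against 1255 units in parental replicate 3 and 957 units in sphere replicate 2. GATA1, 1 of the 10 erythroid markers held, was near 0 in parental replicate 2 like HIST1H4C, and a link between them was not tested.

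HIST1H4H fell, from 15.1, 14.1 and 14.2 units in parental to 5.19, 6.80 and 7.06 units in sphere replicates. The groups were far apart and neither held a library that stood out, with a log2 fold change of -1.08 (95% CI -1.36 to -0.81) and an adjusted p of 0.000575. HIST1H4I lay at 19.8, 18.2 and 88.6 units in parental and 26.9, 34.9 and 22.2 units in sphere replicates. Parental replicate 3 was 4.31 times the next parental library on the units + 1 scale, and the log2 fold change of -0.21 turned to 0.51 without it, neither being called. HIST1H4K, at 10.9, 4.04 and 4.68 units in parental and 5.16, 3.48 and 5.04 units in sphere replicates, was not called. Without the 3 libraries with erythroid transcripts its log2 fold change was -0.96, against parental replicate 1 alone, its highest parental library, and was called. It cannot be separated from HIST1H4J by sequence, since 100% of its 50-base windows occur in that gene.

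HIST1H4J was listed at 0 in all parental libraries and lay at 1.04, 1.16 and 2.01 units in sphere replicates. It entered the test through the sphere libraries alone, so the direction of its call, with an adjusted p of 0.00170, was built in. Brought to a library total of 1000000 units, its values and those of the 4 lower calls under 5 units lay within 0.037 of whole numbers. Other low values, such as 0.551 units for HIST1H4C in parental replicate 1, lie off them. Rounded on that scale, HIST3H2BB lay at 3 in each parental library and at 1 in each sphere library (log2 fold change -0.89, adjusted p = 0.000399). HIST1H4E lay at 3 in each parental library and at 1, 2 and 1 in sphere replicates (adjusted p = 0.0325). HIST1H3G lay at 3, 3 and 4 in parental and at 2 in each sphere library (adjusted p = 0.0381), so its nearest libraries differ by 1. The calls of HIST1H4E and HIST1H3G were lost in 5 and 7 of 16 alternatives, where their adjusted p values reached 0.0998 and 0.117.

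The summed level of each class shows how few libraries set a class total. H1 summed to 227, 368 and 540.3 units in parental and 264, 1082 and 260.2 units in sphere replicates. H2A summed to 314, 297 and 367 units in parental and 184, 326 and 175 units in sphere replicates. The H2A total of sphere replicates 1 and 3 was thus below every parental library, with sphere replicate 2 in the parental range. H2B totals were 580.0, 539.6 and 669 units in parental and 481, 972 and 470.1 units in sphere replicates. H3 totals were 36.7, 239.8 and 114 units in parental and 29.04, 49.3 and 32.3 units in sphere replicates. Sphere replicate 2 was the highest sphere library in every class. For H4 the totals were 58.7, 48.5 and 154 units in parental and 51.9, 261 and 45.5 units in sphere replicates. The 52 genes together gave 1217, 1493 and 1845 units in parental and 1010.4, 2691 and 983 units in sphere replicates. The mean was 1518 ± 315 units in parental and 1561 ± 979 units in sphere cells (SD, n = 3), and without sphere replicate 2 the log2 ratio of the means moved from 0.04 to -0.61. That ratio was -0.29 without the 3 libraries with erythroid transcripts. By class, with all libraries and then without those 3, it was 0.50 and 0.21 for H1, -0.51 and -0.81 for H2A, 0.10 and -0.29 for H2B, -1.82 and -0.26 for H3, and 0.46 and -0.27 for H4.

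**Figure D3:**
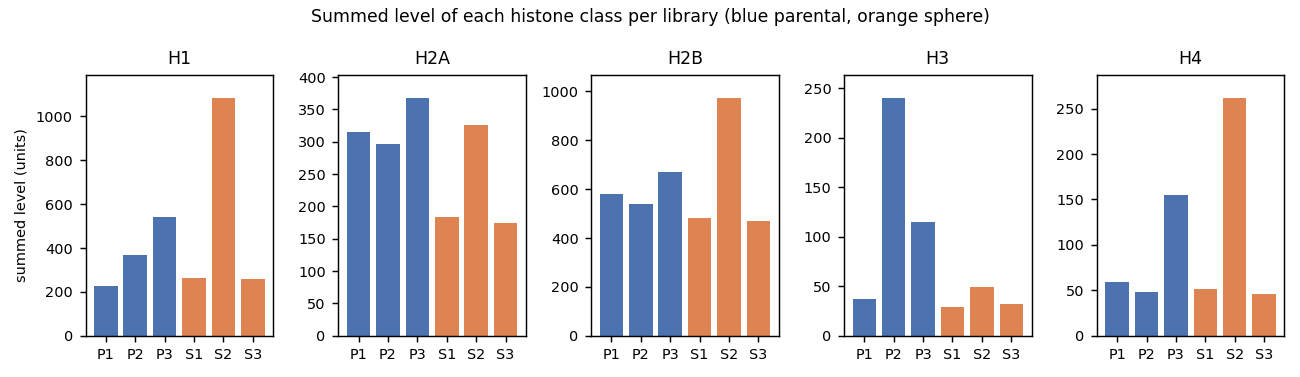
Summed level, in units, of the genes of each histone class in parental replicates P1 to P3 (blue) and sphere replicates S1 to S3 (orange), each panel with its own axis from 0. S2 is the tallest sphere bar in every class, and in H3 the P2 bar reaches 239.8 units, of which HIST1H3H made up 86.1%.

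Tested genes were then counted that stood apart in a single library, with a value + 1 at least 2 times, or at most 1/2 of, that of each other library of its group and at least 5 units in the highest library. In the sphere group 12 of 26 eligible histone genes did so, or 46.2%, against 1.69% of all eligible genes. All 12 were high in sphere replicate 2, and HIST1H4C was also low in sphere replicate 3. Among sphere libraries HIST1H4C, HIST2H2AA3, HIST2H2AA4, HIST1H2BN and HIST1H2BH reached 5 units in replicate 2 alone. They thus became eligible through the library in which they are high. HIST1H4C and HIST1H1C were singled out for this trait before the count. After HIST1H4C, at 89.3 times the nearest sphere library, came HIST1H2AE at 12.6, HIST1H2BJ at 7.05, HIST1H2BG at 6.54, HIST2H2AA4 at 6.34, HIST2H2AA3 at 5.35 and HIST1H1C at 4.11. HIST1H2BN, HIST2H2AC, HIST1H2BH, HIST1H2BK and HIST1H3D reached at most 3.16. HIST1H2BL, which was not among the tested genes and is not counted here, also stood high in sphere replicate 2, at 5.45 units and 3.21 times the nearest sphere library. In the parental group 7 of 24 eligible genes stood apart, or 29.2%, against 4.49% of all eligible genes. Parental replicate 3 was high for 5 of these, HIST1H4C, HIST1H4I, HIST2H2AA3, HIST1H3D and HIST1H2BJ. Parental replicate 2 was high and parental replicate 1 low for HIST1H3H, and parental replicate 1 was high for HIST1H4K. Of the parental genes HIST1H4C, HIST2H2AA3 and HIST1H4K reached 5 units only in the parental library in which they are high. Of the 12 genes called lower, 8 reached 5 units in some library and none of these stood apart in either group. With all libraries brought to 1 common total, 7 genes stood apart in the sphere group. The eligible genes and the share over all genes at that scaling are not given here, so this count cannot be set beside 12 of 26.

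**Figure D4:**
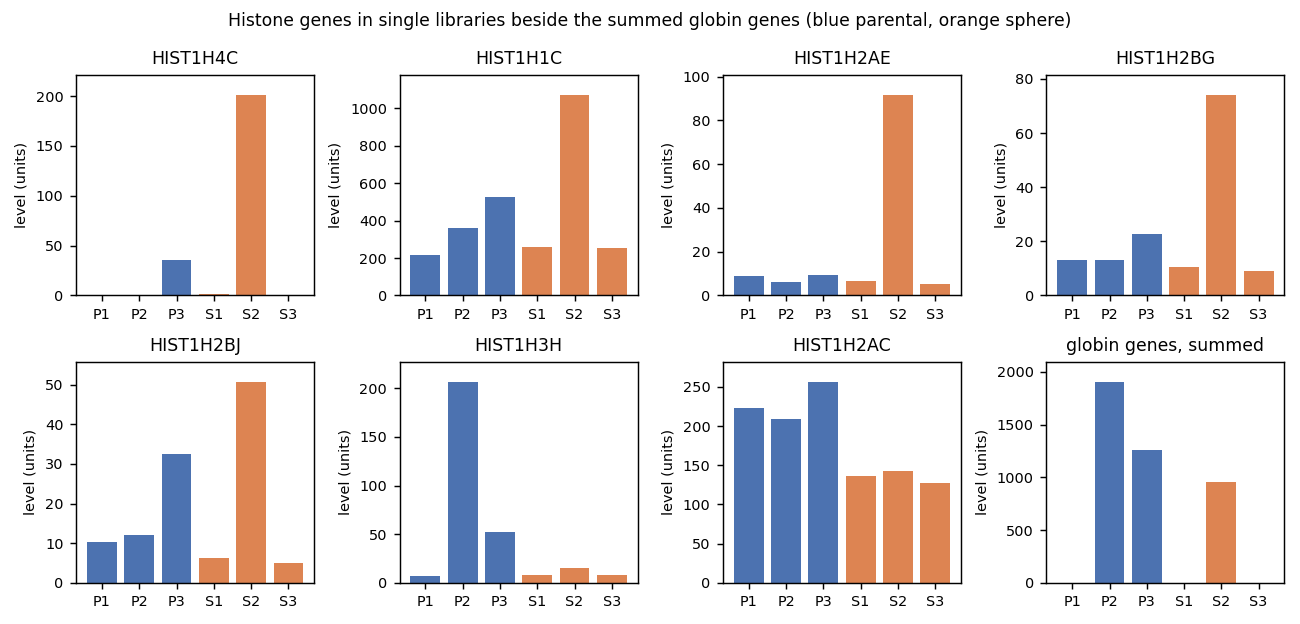
Level, in units, of 7 histone genes in each library (blue parental, orange sphere), each panel with its own axis from 0, beside the summed globin genes. HIST1H4C, HIST1H2AE, HIST1H2BG, HIST1H2BJ and HIST1H1C peak in S2, HIST1H3H peaks in P2, HIST1H2AC is even within each group, and globin transcripts are high in P2, P3 and S2.

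Many H2A and H2B genes lie head to head and share the stretch between their start sites. In the GENCODE v29 annotation 8 such pairs, 16 genes in all, were separated by 218 to 330 bases. In 1 pair, HIST1H2BC and HIST1H2AC, both genes were called lower, and these are separated by 218 bases. HIST1H2BG and HIST1H2AE, separated by 282 bases, were both high in sphere replicate 2, at 74.2 and 91.8 units. In other pairs the partners differed. HIST2H2BE fell while HIST2H2AC was high in sphere replicate 2. HIST1H2AG was lower in every sphere library, while HIST1H2BJ was high in sphere replicate 2.

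The 250 bases before the start site are printed for the H2A gene of each of the first 2 pairs, which moved together with their partners in different ways, and for HIST1H4H as an H4 gene that fell. Sequences are from RefSeq, GRCh38.p14. Capitals mark TATAA (the core of a TATA box), CCAAT (a site of general activators) and the octamer ATTTGCAT (a site of POU factors, known from H2B promoters), each on either strand. The HIST1H2AC stretch is chr6:26123922-26124171 on the plus strand. HIST1H2AE is chr6:26216671-26216920 on the plus strand. HIST1H4H is chr6:26285535-26285784 on the minus strand.
HIST1H2AC: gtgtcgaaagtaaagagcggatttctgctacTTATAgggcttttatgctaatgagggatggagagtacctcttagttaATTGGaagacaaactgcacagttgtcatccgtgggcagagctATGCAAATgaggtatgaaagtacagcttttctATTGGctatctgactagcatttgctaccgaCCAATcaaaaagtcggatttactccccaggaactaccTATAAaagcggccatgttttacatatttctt
HIST1H2AE: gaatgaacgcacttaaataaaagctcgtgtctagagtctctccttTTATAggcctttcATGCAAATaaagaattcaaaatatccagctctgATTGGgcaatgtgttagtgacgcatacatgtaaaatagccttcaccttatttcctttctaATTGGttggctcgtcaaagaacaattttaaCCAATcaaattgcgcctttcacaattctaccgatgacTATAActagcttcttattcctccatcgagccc
HIST1H4H: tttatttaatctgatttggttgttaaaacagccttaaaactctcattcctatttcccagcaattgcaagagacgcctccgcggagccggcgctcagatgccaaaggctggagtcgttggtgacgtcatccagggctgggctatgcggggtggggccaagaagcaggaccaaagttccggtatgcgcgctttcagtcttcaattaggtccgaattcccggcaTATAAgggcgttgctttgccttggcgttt

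The stretches before HIST1H2AC, which fell, and HIST1H2AE, which peaked in sphere replicate 2, both carry all 3 motifs, and that before HIST1H4H carries TATAA alone. Promoters, taken as 250 bases before and 50 after the start, were matched for 46 of the 52 genes, leaving HIST2H2AA3, HIST2H2AA4, HIST1H2AH, HIST1H4C and HIST1H4A, and HIST1H3D, whose entry is the window of HIST1H2AD. The RefSeq start of HIST1H2BN, HIST1H2BE and HIST1H4I lies over 500 bases from the GENCODE v29 start. TATAA was present in 41 of 46, or 89.1%, against 20.4% of 35116 promoters in the table. CCAAT was present in 38 of 46, or 82.6%, against 34.6%, with 1 of 9 in H4 and every promoter of the other classes. The octamer was present in 18 of 46, or 39.1%, against 1.77%, with 7 of 9 in H2A, 11 of 15 in H2B and none of 5 in H1, 8 in H3 or 9 in H4. These are matches of letters only. Windows of head-to-head partners overlap, so the same site can count for both genes. The octamer of HIST1H2AC is that of HIST1H2BC, and the octamer of HIST1H2AE is that of HIST1H2BG. The same holds for HIST1H2AD and HIST1H2BF, HIST1H2AG and HIST1H2BJ, and HIST2H2AC and HIST2H2BE.

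The lower calls were also set against the annotated 3′ ends. In 21 genes an annotated transcript runs at least 100 bases past the stem-loop, and all of these were tested. Of them 9, or 42.9%, were called lower, against 22.9% of all genes tested, and 0 higher, against 25.8%, by limma, the same counts as at an unadjusted p below 0.05, with a median log2 fold change of -0.51. In 14 of the 21 the last 50 bases hold a poly(A) signal, AATAAA or ATTAAA. In 6 tested genes the transcripts with the stem-loop end within 100 bases of it. None of these genes was called lower by limma, nor at an unadjusted p below 0.05. The 1 higher call, or 16.7% against 25.8% of all genes, was HIST1H4J, which passed the filter through the sphere libraries alone. The median log2 fold change of these genes, -0.01, includes HIST1H4J and HIST1H2AE, whose 0.84 became -0.43 without sphere replicate 2. Of 18 tested genes without a stem-loop in the annotation, 3, or 16.7%, were called lower, with a median of -0.20. Without sphere replicate 2, HIST2H2AA4 of the 6 was called lower by limma. HIST3H2A, HIST1H2BH and HIST1H2BN of the 21 were then also called lower, and HIST1H3G was no longer called. Without parental replicate 1, HIST1H2AI of the 6 and HIST1H3H of the 21 were called lower, and HIST1H4E was not. Without the 3 libraries with erythroid transcripts, against parental replicate 1 alone, the further lower calls named above lay in each of these groups. HIST1H3D, HIST1H4K and HIST1H2BJ are of the 18, at log2 fold changes of -1.01, -0.96 and -0.76. HIST3H2A, HIST1H2BH and HIST1H2BN are of the 21 and HIST2H2AA4 of the 6. The calls then lost, HIST2H2BF and HIST1H3G, and the higher call HIST2H4A are of the 21, and the higher call HIST1H1C is of the 18. The groups by 3′ end also differ in level and in length of annotation, and the difference between them was not tested. A list of 7 genes known to make polyadenylated transcripts held 4 lower calls, or 57.1%, HIST2H2BE, HIST1H4H, HIST1H2AC and HIST1H2BC, and no higher call from limma, with the same counts at an unadjusted p below 0.05. HIST1H2BD is in this list and also among the 6, and its longest annotated stretch after the stop codon is 384 bases.

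Near-identical copies limit how far single genes can be read. Over the 52 genes the median share of 50-base windows that also occur in another gene's transcripts was 2.67%. It was under 10% in 34 genes, among them 10 of the 12 called lower, the exceptions being HIST1H2AD at 98.0% and HIST2H2BF at 26.9%. HIST2H2AB and HIST2H2BF also overlap exons of genes on the other strand, BOLA1 and FCGR1A, and whether strand was used in counting is not given in the sources used here. It was at least 50% in 12 genes, HIST2H2AA3 and HIST2H2AA4 among them at 100% and 97.1%, and HIST2H4A and HIST2H4B at 97.5% and 97.2%. The windows of HIST1H4C, HIST1H1C, HIST1H2AE, HIST1H2BG and HIST1H3H, which each had a library that stood apart in its group, were shared by 0%.

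Histone variants that are made outside S phase were examined next, from a list of 21 genes of which 10 were tested. None was called higher by limma, nor at an unadjusted p below 0.05, and 5, or 50.0%, were called lower against 22.9% of all genes, at a median log2 fold change of -0.56. H1F0, the linker histone H1.0 of resting and differentiated cells, lay at 444, 419.5 and 352 units in parental and 157, 149 and 149 units in sphere replicates. Every sphere library was far below every parental one, with a log2 fold change of -1.41 and an adjusted p of 0.000111. H1FX, the H1.10 gene, had a log2 fold change of -0.73, CENPA, the H3 variant of centromeres, had -0.75, and H3F3B, a source of H3.3, had -0.40, all called by limma. H3F3A, the other H3.3 gene, had a log2 fold change of 0.02, was not called, and changed sign under other scalings. H2AFZ, at 218, 532 and 484 units in parental and 183, 202 and 161 units in sphere replicates, had a log2 fold change of -1.08 and an adjusted p of 0.0456. The lowest parental value was in the library with no globin transcripts. Without the 3 libraries with erythroid transcripts the log2 fold change was -0.34 and not called. The call was lost in most alternatives, where the adjusted p ranged from 0.000907 to 0.130.

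Of the genes that transcribe and process histone mRNA, 22 were tested, of which 1, or 4.55%, was called higher and 5, or 22.7%, lower, against 25.8% and 22.9% of all genes, with a median log2 fold change of -0.06. SLBP itself lay at 80.5, 71.6 and 113 units in parental and 80.6, 80.6 and 71.6 units in sphere replicates. The groups overlapped, with a log2 fold change of -0.16 (95% CI -0.58 to 0.26). NPAT, the coactivator of histone transcription, had 0.23 and CASP8AP2, its partner in histone locus bodies, 0.33 as log2 fold changes, and neither was called. LSM10, a subunit of the U7 particle, fell from 66.4, 71.6 and 74.7 units in parental to 37.2, 44.1 and 37.3 units in sphere replicates, at a log2 fold change of -0.83 and an adjusted p of 0.000498. NCBP2 of the cap-binding complex, UPF1 of histone mRNA decay, and CPSF2 had log2 fold changes of -0.28, -0.45 and -0.23, and were called lower. The log2 fold change of CPSF2 without the 3 libraries with erythroid transcripts was again -0.23 but was not called.

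Of 23 histone chaperone and acetylation genes tested, 5, or 21.7%, were called higher and 3, or 13.0%, lower, against 25.8% and 22.9% of all genes. RBBP4, a subunit of chromatin assembly factor 1, rose from 19.5, 19.2 and 20.8 units in parental to 33.1, 31.8 and 33.3 units in sphere replicates, at a log2 fold change of 0.70. MCM2 and NAP1L1 rose as well, at 0.66 and 0.39, the latter not called when libraries were brought to a common total, and UBN1 of the H3.3 chaperone complex fell, at -0.58. Of 44 S-phase and G1/S genes 19, or 43.2%, were called higher and 3, or 6.82%, lower, against those 25.8% and 22.9% of all genes, and the median log2 fold change was 0.19. At a common total 12 were called higher against 15.2% of all genes and 3 lower against 25.1%, and the median was 0.037. Over nuclear genes alone the median was 0.095, and without the 3 libraries with erythroid transcripts it was 0.33. PRIM1, a DNA primase subunit, and POLE2, a subunit of DNA polymerase epsilon, rose, at log2 fold changes of 0.69 and 1.04, and CDC6, which loads the replicative helicase, fell, at -0.97. The replication genes and the histone genes thus had medians on opposite sides of that of all tested genes, 0.04, also under these 3 alternatives, and the difference between the lists was not tested.

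**Figure D5:**
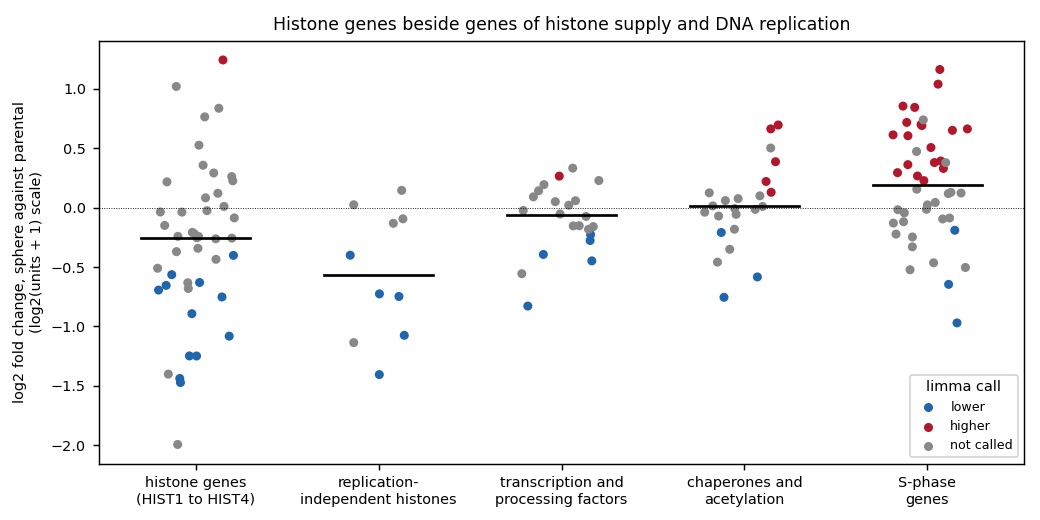
Log2 fold change, sphere against parental on the log2(units + 1) scale, of the tested genes of each list, as points (blue called lower, red called higher, grey not called) with the list's median as a bar. The medians are -0.25 for histone genes, -0.56 for replication-independent histones, -0.06 for transcription and processing factors, 0.01 for chaperones and acetylation and 0.19 for S-phase genes.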

How the data were processed

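The deposited table gave 1 value per gene and library, a signal that the authors name TPM and that is treated here as TPM-like, because column totals differed between libraries. The submitters' processing notes list HISAT and Bowtie2 with no version, and GRCm38.p6, a mouse build, whereas the identifiers are human. The sources used here do not give the quantifier, the human build or the annotation. Values were analysed as log2(value + 1), which understates the change of low genes. All 15034 genes that reached 1 unit in 3 or more libraries entered 1 fit in limma 3.58.1 (R 4.3.3) with 2 groups, a trended variance prior, two-sided tests and Benjamini-Hochberg adjustment. The script was tested on simulated data. Every histone gene whose mean reached 5 units in either group, HIST1H4C and HIST1H1C are given with all their values, and other lists by up to 4 called genes of smallest p plus genes of known role. The genes and lists were chosen with earlier results of these data known. Alternatives covered the pseudocount, the filter, the scaling, the variance model, array weights, a replicate block and libraries left out. Transcripts came from GENCODE v29, where 50 genes matched by identifier and HIST1H3B and HIST1H3C by symbol. A further gene of the companion lists is not reported here.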

Additional observations from a re-analysis of the deposited data

How the results depend on the processing

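Of the 12 lower calls, 8 held in every alternative in which the gene was tested, and the exceptions were HIST1H1E, HIST1H3G, HIST1H4E and HIST2H2BF. Among those 8, HIST2H2AB passed the filter through the parental libraries alone, so its direction was built in. Rounded at a common total, HIST3H2BB had the same value in every library of a group. Neither was tested under a filter of at least 5 units. Lower calls numbered 8 of 22 (36.4%) with that filter, against 30.0% of all genes, and 15 of 45 (33.3%) with quantile normalization, against 26.8%. With each library left out in turn they numbered 9 to 15 of 45, or 20% to 33.3%, against 19.0% to 22.0% of all genes. Higher calls numbered 1 to 2 of 45 with each library left out, or 2.22% to 4.44%, against 21.9% to 26.6% of all genes. With the filter of at least 5 units they numbered 0 of 22, against 29.03% of all genes. At an unadjusted p below 0.05 limma also gave 0 under that filter. A fit with the replicate block gave 11 lower calls of 45 and 1 higher call, losing HIST1H3G, against 18.9% and 22.2% of all genes. Deviations of libraries with the same replicate number correlated at 0.33, 0.12 and -0.27. With 3 libraries per group these values cannot decide whether the numbers pair the libraries. With all libraries at 1 common total, 7 histone genes stood apart in the sphere group, against 12 at the authors' scale. The share over all genes at a common total is not given here.

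Log2 ratios of summed levels ranged, with each library left out in turn, from -0.53 to 0.85 for H1, from -0.84 to 1.16 for H4 and from -0.61 to 0.29 for all 52 genes. The lowest came without sphere replicate 2. The H3 ratio was -0.26 without the 3 libraries with erythroid transcripts. Scaling to a common total moved the median of all genes from 0.04 to -0.10, over nuclear genes to -0.05, and the histone median from -0.25 to -0.34 and -0.36.

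Several uncalled fold changes changed sign. HIST2H2AC was 0.039 with a pseudocount of 5. HIST1H3E was -0.065 and -0.0097 with common totals over all and over nuclear genes, and -0.0047 with array weights, where HIST1H4I was 0.10. H3F3A was -0.025 with quantile normalization, -0.14 at a common total and -0.077 over nuclear genes. Without the 3 libraries with erythroid transcripts the values were -0.56 for HIST1H2AE, 0.17 for HIST1H2AI, -0.39 for HIST1H2BG, 0.20 for HIST1H3H, -0.14 for HIST1H3E, -0.0052 for HIST1H4C and 0.29 for HIST1H4I. With each library left out the values ranged from -0.42 to 0.61 for HIST1H1C, -0.61 to 0.49 for HIST2H2AC, -0.58 to 0.040 for HIST1H4K, -0.087 to 0.11 for H3F3A, -1.35 to 0.19 for HIST1H2BJ, -0.040 to 0.22 for HIST1H3E, -0.60 to 0.51 for HIST1H4I, -0.30 to 0.028 for SLBP, -0.43 to 1.54 for HIST1H2AE, -0.64 to 0.81 for HIST1H2BG and -1.32 to 2.64 for HIST1H4C. The cause of these changes was not tested, and the unknown read depth limits what low genes can show.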
